A study of Mus musculus with 23 samples.

Results

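The genes described here are 51 genes of the cell division cycle, measured in the mouse ileum. They were taken from a list of names that was drawn up with earlier results of these data known, and matched to the gene name printed for each array probe. All 51 names were found, among 23912 gene names and 37161 probes in the authors' table. Each gene was read from its probe with the highest mean signal over all arrays. Of the 51 genes, 33 act in G2 phase and mitosis (G2/M), 15 in the licensing and copying of DNA (S phase), and 3 are the regulators Foxm1, E2f1 and Chek1.

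In the small intestine, cell division is largely confined to the crypts, where stem cells and their transit-amplifying daughters divide before they move onto the villus and stop cycling. On entry into S phase, E2F transcription factors switch on genes for the MCM helicase, nucleotide synthesis and DNA polymerases. Later, FOXM1 and the MYB-MuvB complex switch on genes for the spindle, the kinetochore and the anaphase-promoting complex (APC/C), whose messages peak in G2 and mitosis.

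The series compared 4 groups of male C57BL/6J mice with 1 array per mouse. Wild-type (WT) mice were bought at 6 weeks of age and acclimatised for 2 weeks. Mice without the pregnane X receptor (Pxr-/-, which lack the gene Nr1i2, backcrossed to C57BL/6J) came from a colony kept in house for 10 years, so that genotype and origin cannot be told apart in any comparison of genotypes. Pregnenolone 16α-carbonitrile (PCN), a steroid ligand of the mouse receptor, was given in corn oil by intraperitoneal injection at 100 mg/kg on each of 4 days, and controls (CONT) received the oil alone. Tissue was taken at ZT6, with 6 h elapsed since the final dose. The mice had free access to food, and the paper describes their state at that hour as semi-fasted. Each group was given 6 mice, and 23 arrays were analysed, 6 for each group except WT PCN, which had 5.

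Levels are given as log2 intensity from the authors' normalised table, and a change is a difference of log2 intensities with its standard error (SE). A gene was called when its adjusted p, from limma with Benjamini-Hochberg adjustment over all 37161 probes, was at most 0.05 and its fold change exceeded 1.5. A second count used the adjusted p alone, and "fell" or "rose" below refers to that count. The whole wall of the ileum was profiled, so fewer dividing cells and less RNA per dividing cell cannot be told apart in any value below. The median spot signal of an array lay between 74 and 106.5, and between 62.66% and 68.79% of its spots were well above background. The receptor's own probe did not separate the genotypes, with Nr1i2 levels of 11.91 to 12.28 in WT CONT and 11.34 to 12.37 in Pxr-/- CONT. Whether this probe lies within the deleted part of the gene was not analysed here.

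Of the 51 genes, 50 were well above background on all 23 arrays and none was saturated. The exception was Ccne2, one of the E-type cyclins that drive entry into S phase, which was above background on 9 arrays and had a mean level of 5.33.

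Promoter sequence was available from RefSeq (GRCm38.p6) for 44 of the 51 genes, which gave 47 promoters of 300 bases, 250 of them before the start. Names without an entry were Ccna2, Ccne2, Foxm1, Aurkb, Gins2, Tpx2 and Kif20a. The promoters were searched on both strands for letters known from cell cycle promoters. The letters CCAAT (the CCAAT box, bound by NF-Y) were present in 25 of 31 G2/M promoters (80.6%), 9 of 14 S-phase promoters (64.3%) and 37.4% of all 32851 promoters. The letters TTTGAA (the cell cycle gene homology region, CHR, bound by MuvB complexes) were in 25 of 31 G2/M promoters (80.6%), 1 of 14 S-phase promoters (7.14%) and 17.9% of all promoters. E2F-type letters (TTTNNCGC or TTCCCGC, which may overlap each other) were in 1 of 31 G2/M promoters (3.23%), 9 of 14 S-phase promoters (64.3%) and 8.45% of all promoters. The 1 G2/M promoter was that of Cdk1, and the 1 S-phase gene with a CHR was Mcm2. A match of letters is a description of the sequence and was not tested for binding.

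The promoters of 6 genes are printed to show the letters that differed between the classes, each from 160 bases before the start up to the start. Capitals mark CCAAT, CHR and E2F-type letters on either strand, where a match on the other strand reads ATTGG or TTCAAA. In the 3 G2/M genes the CHR began 23, 29 and 19 bases before the start of Top2a, Ube2c and Kif11. Its position varied among the other G2/M promoters, from 18 bases before the start in Cdc20 to 24, 30 and 32 bases after it in Spc25, Plk1 and Aurka.
Top2a, chr11:99024190-99024349, minus strand: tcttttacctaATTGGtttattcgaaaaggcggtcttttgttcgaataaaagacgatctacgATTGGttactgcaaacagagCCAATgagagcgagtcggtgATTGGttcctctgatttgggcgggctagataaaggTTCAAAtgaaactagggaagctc
Ube2c, chr2:164769769-164769928, plus strand: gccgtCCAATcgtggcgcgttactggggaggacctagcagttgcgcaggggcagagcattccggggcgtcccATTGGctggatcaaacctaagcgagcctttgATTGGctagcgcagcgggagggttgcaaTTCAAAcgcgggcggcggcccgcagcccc
Kif11, chr19:37376222-37376381, plus strand: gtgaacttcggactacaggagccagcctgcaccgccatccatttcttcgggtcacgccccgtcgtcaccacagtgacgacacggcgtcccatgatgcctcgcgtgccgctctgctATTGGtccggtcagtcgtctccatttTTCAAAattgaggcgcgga

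In the S-phase genes the E2F-type letters formed an overlapping pair beginning 153 and 149 bases before the start of Mcm5 and a single match 67 bases before that of Rrm1. The printed stretch of Chek1 held none of the letters searched, but an E2F-type match began 43 bases after its start, beyond that stretch. Chek1 was the 1 of 2 regulator promoters with E2F-type letters, and that of E2f1 held none of the letters.
Mcm5, chr8:75109349-75109508, plus strand: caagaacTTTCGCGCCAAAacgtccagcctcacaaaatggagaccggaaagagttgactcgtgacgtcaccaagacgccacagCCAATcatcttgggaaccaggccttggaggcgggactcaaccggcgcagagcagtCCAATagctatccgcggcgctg
Rrm1, chr7:102441535-102441694, plus strand: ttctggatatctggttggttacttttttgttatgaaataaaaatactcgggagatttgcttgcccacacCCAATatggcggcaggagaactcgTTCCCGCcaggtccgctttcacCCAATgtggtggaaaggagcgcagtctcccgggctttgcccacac
Chek1, chr9:36726659-36726818, minus strand: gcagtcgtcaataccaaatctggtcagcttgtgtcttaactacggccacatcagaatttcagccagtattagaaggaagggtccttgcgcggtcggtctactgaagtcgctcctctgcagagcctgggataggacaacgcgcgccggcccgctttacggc

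Levels of the 2 classes on each array gave the first comparison of the groups. The mean log2 intensity of the 33 G2/M genes in WT mice was 9.89 ± 0.17 (SD, n = 6) with oil and 9.79 ± 0.19 (n = 5) with PCN. In Pxr-/- mice it was 10.13 ± 0.30 (n = 6) with oil and 9.82 ± 0.21 (n = 6) with PCN. For the 15 S-phase genes the means were 10.38 ± 0.15 and 10.18 ± 0.08 in WT mice, and 10.42 ± 0.24 and 10.17 ± 0.21 in Pxr-/- mice. Pxr-/- CONT spanned the widest range of G2/M levels, from 9.63 in replicate 3 to 10.47 in replicate 5, and all groups overlapped. For S-phase genes, WT PCN replicate 3 stood at 10.31 and the other WT PCN arrays at 10.19 or less, while WT CONT replicate 3 stood at 10.18 and the other WT CONT arrays at 10.27 or more.

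**Figure D1:**
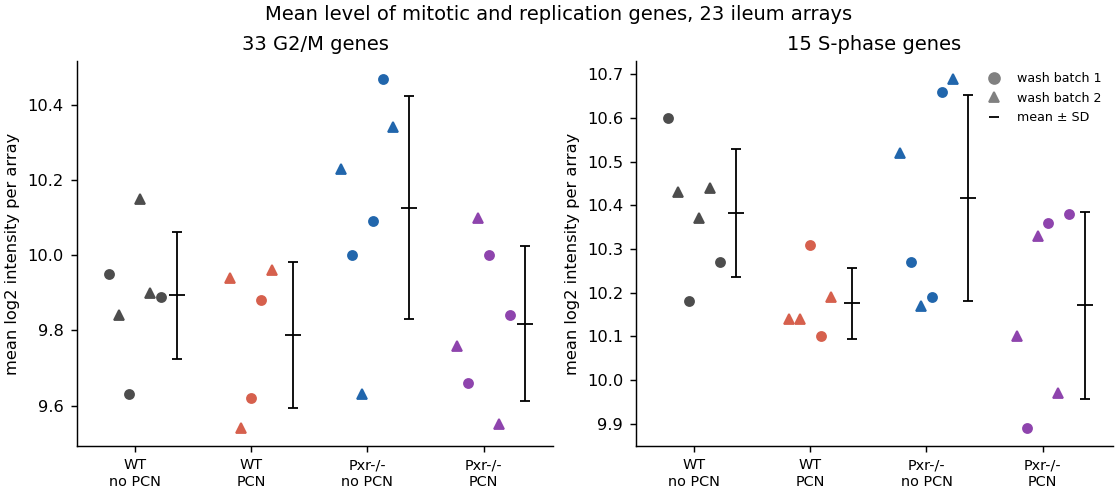
Mean log2 intensity of the 33 G2/M genes (left) and the 15 S-phase genes (right) on each of the 23 arrays, by group; circles are wash batch 1, triangles wash batch 2, and the bar is the group mean ± SD. Pxr-/- CONT had the highest mean on both sides, 10.13 and 10.42, and the widest spread.

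The question of the first contrast was how PCN acts where the receptor is present. In WT mice, 46 of the 51 genes were lower after PCN than after oil, with a median change of -0.13 and a range of -0.41 to 0.07, against 54.9% of all probes lower and a median of -0.01. None was called under the fold rule (0.692% of all probes were), and none passed the adjusted p alone (0.304% of all probes fell by it). At an unadjusted p under 0.05 there were 6 genes, all lower (5.99% of all probes): Mcm2, Mcm5, Rrm1, Ccne1, Top2a and Chek1. Chek1 was the 1 gene of 51 whose WT groups did not overlap (1.27% of all probes were lower without overlap).

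In Pxr-/- mice, all 51 genes were lower after PCN, with a median change of -0.30 and a range of -0.48 to -0.02, against 53% of all probes lower. None was called under the fold rule (0.947% of all probes), but 4 fell by the adjusted p alone, which are Ube2c, Cdca8, E2f1 and Chek1 (1.6% of all probes). At an unadjusted p under 0.05 there were 30 genes, all lower (10.7% of all probes). E2f1 was the 1 gene whose Pxr-/- groups did not overlap (1.24%). The 4 calls depended on single arrays. None remained without Pxr-/- CONT replicate 1, 5 or 6 or without Pxr-/- PCN replicate 1, 2, 4 or 5; there was 1 without Pxr-/- CONT replicate 2, WT CONT replicate 2 or 6, or WT PCN replicate 5; there were 2 without WT CONT replicate 5 or WT PCN replicate 1 or 3; and there were 7 without Pxr-/- PCN replicate 3 and 12 without Pxr-/- CONT replicate 3.

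Averaged over the genotypes, 50 of 51 genes were lower after PCN, with a median change of -0.21, and Ndc80 was the exception at 0.01. None was called under the fold rule (0.939% of all probes). By the adjusted p alone 12 fell (23.5% of the 51, against 4.59% of all probes), 6 of G2/M (Mki67, Top2a, Aurka, Kif11, Nuf2 and Cdca8), 4 of S phase (Mcm3, Mcm5, Rrm1 and Ccne1) and the regulators E2f1 and Chek1. At an unadjusted p under 0.05 there were 30 (13.8% of all probes). The 12 became 5 without Pxr-/- PCN replicate 2, WT PCN replicate 2 or Pxr-/- CONT replicate 6, then 6 without Pxr-/- CONT replicate 1 or 5, Pxr-/- PCN replicate 1 or 5, WT CONT replicate 1, 4 or 5, or WT PCN replicate 4, and 7 without WT PCN replicate 3. Without Pxr-/- CONT replicate 3 there were 19. Mcm5, Rrm1, Ccne1 and Chek1 fell in each of the 23 fits that left out 1 array.

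The average rests on the same arrays as the effects in each genotype, so the 3 contrasts are not independent. Whether the PCN effect differed between genotypes was tested by the interaction, and 0 of 51 genes passed it under the fold rule (0.078% of all probes), by adjusted p alone (0.0834%) or at an unadjusted p under 0.05 in limma. The PCN effects in WT and Pxr-/- mice were therefore not shown to differ for any of these genes, and the lowest unadjusted interaction p was 0.0546, for Ube2c (-0.37 ± 0.18).

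**Figure D2:**
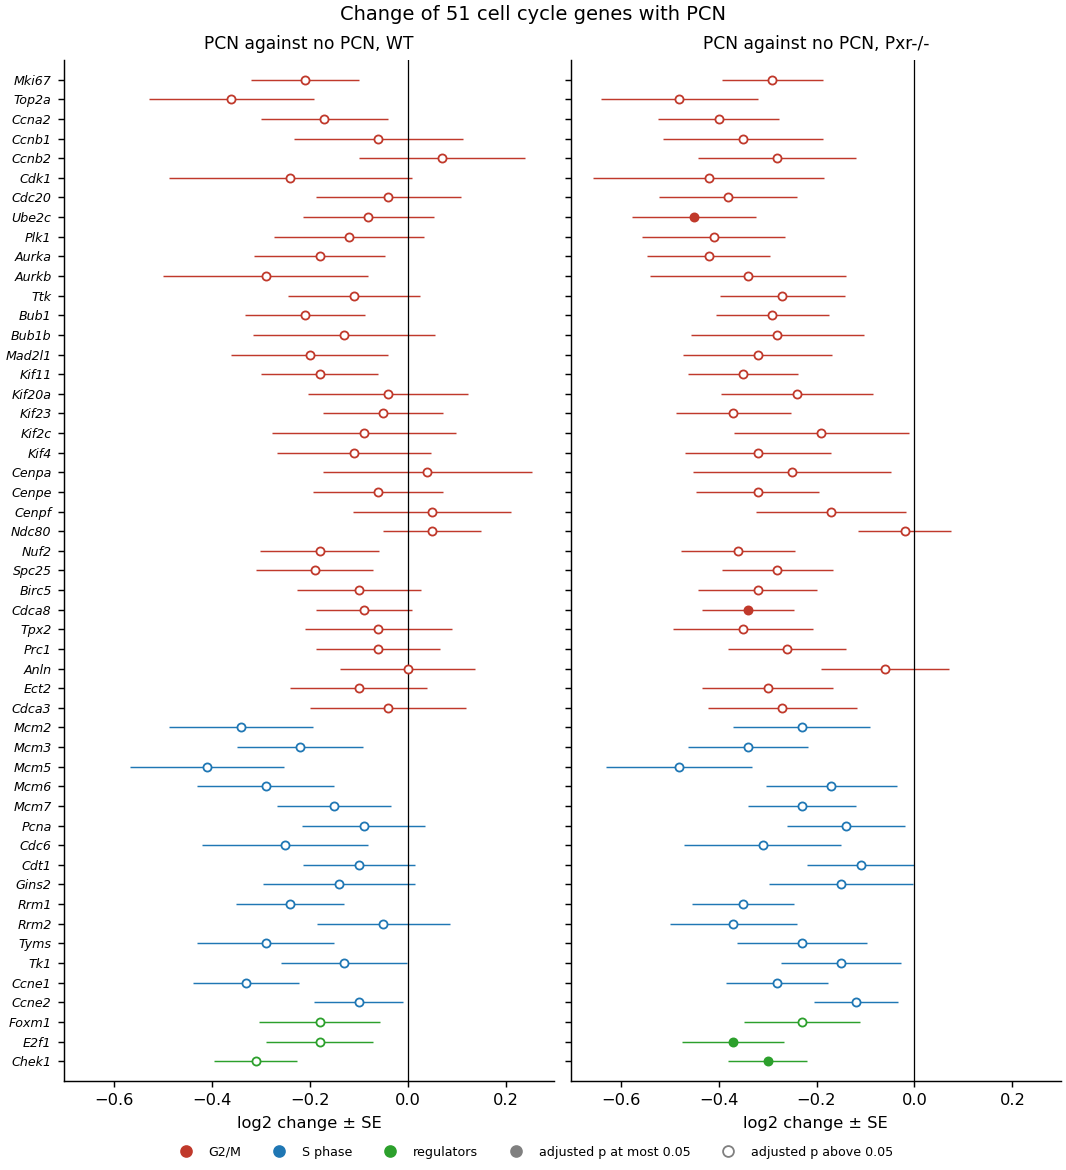
Log2 change ± SE with PCN for each of the 51 genes in WT (left) and Pxr-/- mice (right), in red for G2/M, blue for S phase and green for regulators; filled points have an adjusted p of at most 0.05. All 51 points lie below 0 in Pxr-/- mice, where 4 are filled, and 46 lie below 0 in WT mice, where none is filled.

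Among the regulators, Chek1, the checkpoint kinase that holds back cells with unfinished or damaged DNA, had the smallest p. Its level was 6.91 at the lowest, 7.07 at the median and 7.41 at the highest in WT CONT. In WT PCN it was 6.64, 6.84, 6.90, 6.71 and 6.90, below every WT CONT array. In Pxr-/- CONT it ran from 6.95 over a median of 7.07 to 7.23, and in Pxr-/- PCN from 6.58 over 6.81 to 6.95, so that these groups met at 6.95. The difference was -0.31 ± 0.085 in WT (limma adjusted p = 0.0847), -0.30 ± 0.081 in Pxr-/- (0.0405) and -0.30 ± 0.059 averaged (0.00246). Its other probe gave -0.41 in WT and -0.29 in Pxr-/- mice. Besides leaving out single arrays, 13 alternative fits were made. In these the Pxr-/- change of Chek1 ran from -0.37 to -0.24 and passed by adjusted p in 7, while its averaged change passed in 12.

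E2f1, a transcription factor that activates S-phase genes, was measured between 8.54 and 9.0 in WT CONT (median 8.67) and at 8.31, 8.89, 8.65, 8.36 and 8.55 in WT PCN, which overlapped. In Pxr-/- mice it lay between 8.71 and 9.15 without PCN (median 8.81) and between 8.42 and 8.64 with PCN (median 8.50), with no overlap. The differences were -0.18 ± 0.109 in WT (limma adjusted p = 0.55), -0.37 ± 0.104 in Pxr-/- (0.0476) and -0.28 ± 0.075 averaged (0.0243). Foxm1, the activator of G2/M genes, differed by -0.18 ± 0.124 in WT and -0.23 ± 0.118 in Pxr-/- mice and passed in neither (limma adjusted p = 0.634 and 0.286).

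All 15 S-phase genes were lower after PCN in both genotypes, with medians of -0.22 in WT and -0.23 in Pxr-/- mice. Within a wash batch the WT median was -0.16 in batch 1 and -0.24 in batch 2, and the Pxr-/- median was -0.18 and -0.32. With the slide fitted in place of the wash batch the WT median was -0.11.

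The 5 MCM genes encode subunits of the helicase that opens DNA at origins, and their median change was -0.29 in WT and -0.23 in Pxr-/- mice. Mcm5 had the largest change of the S-phase genes in both. It lay between 10.06 and 10.60 in WT CONT (median 10.46) and at 10.03, 10.04, 10.17, 9.86 and 9.92 in WT PCN, so that 1 treated array exceeded the lowest control. Pxr-/- arrays ran from 10.05 to 10.80 (median 10.39) without PCN and from 9.55 to 10.27 (median 10.02) with PCN, with 3 treated arrays at 9.55 to 9.81 below all controls. The differences were -0.41 ± 0.157 in WT (limma adjusted p = 0.273), -0.48 ± 0.149 in Pxr-/- (0.0732) and -0.44 ± 0.108 averaged (0.0132).

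Mcm3 fell by 0.28 on the log2 scale on average (limma adjusted p = 0.0483), and its 4 probes gave changes of -0.36 to -0.28. Mcm2 differed by -0.34 ± 0.147 in WT and -0.23 ± 0.14 in Pxr-/- mice, Mcm6 by -0.29 and -0.17, and Mcm7 by -0.15 and -0.23, and none of these passed in any contrast. The other probe gave -0.25 in WT and -0.43 in Pxr-/- mice for Mcm6, and -0.02 and -0.32 for Mcm7. Mcm2 was at 9.33, 9.19, 9.55, 9.27 and 9.24 in WT PCN against 9.49 to 9.92 in WT CONT, so that only WT PCN replicate 3 overlapped.

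Cyclin E1, encoded by Ccne1, activates CDK2 at the G1/S boundary. Ccne1 lay between 9.61 and 10.15 in WT CONT (median 9.76) and at 9.39, 9.59, 9.65, 9.25 and 9.55 in WT PCN. It ran in Pxr-/- mice from 9.66 to 10.22 (median 10.01) without PCN and from 9.52 to 9.85 (median 9.77) with PCN. In WT mice only treated replicate 3 exceeded the lowest control, and in Pxr-/- mice 4 of 6 treated arrays did. The differences were -0.33 ± 0.109 (limma adjusted p = 0.172), -0.28 ± 0.104 (0.129) and -0.31 ± 0.075 averaged (0.0136). Ccne2, near background, differed by -0.10 and -0.12.

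Ribonucleotide reductase supplies deoxyribonucleotides, and its large subunit gene Rrm1 fell on average by 0.30 on the log2 scale (SE 0.076, limma adjusted p = 0.0168). Rrm1 was at 10.17 to 10.66 in WT CONT (median 10.46), at 10.21, 10.14, 10.35, 10.08 and 10.34 in WT PCN, at 10.33 to 10.79 in Pxr-/- CONT (median 10.54) and at 9.94 to 10.43 in Pxr-/- PCN (median 10.20). All groups overlapped. The small subunit gene Rrm2 differed by -0.05 ± 0.136 in WT and -0.37 ± 0.13 in Pxr-/- mice (limma adjusted p = 0.945 and 0.11). Thymidylate synthase (Tyms) differed by -0.29 and -0.23, and thymidine kinase (Tk1) by -0.13 and -0.15, without passing.

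The 4 genes of licensing and the fork had the smallest differences among the S-phase roles, with medians of -0.12 in WT and -0.14 in Pxr-/- mice. Pcna, the sliding clamp of DNA polymerase, had group means of 12.38 to 12.62 and differences of -0.09 ± 0.126 and -0.14 ± 0.12. Cdc6, which loads MCM onto origins, differed by -0.25 and -0.31, its partner Cdt1 by -0.10 and -0.11, and Gins2, a part of the active helicase, by -0.14 and -0.15.

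The 33 G2/M genes had a median change with PCN of -0.10 in WT, where 28 were lower, and of -0.32 in Pxr-/- mice, where all 33 were. By wash batch the median was -0.08 and -0.16 in WT and -0.37 and -0.30 in Pxr-/- mice. The WT median was -0.04 without WT PCN replicate 2 or WT CONT replicate 4 and -0.05 without WT PCN replicate 3. Of the 33, 1 reached an unadjusted p under 0.05 in WT and 22 did in Pxr-/- mice.

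Top2a, the topoisomerase that untangles sister chromosomes, had the largest change of the G2/M genes in both genotypes. It lay between 11.33 and 11.89 in WT CONT (median 11.64) and at 11.47, 11.03, 11.19, 11.32 and 11.34 in WT PCN. Pxr-/- arrays ran from 11.39 to 12.27 (median 11.75) without PCN and from 10.89 to 11.72 (median 11.38) with PCN. Each pair of groups overlapped. The differences were -0.36 ± 0.168 (limma adjusted p = 0.408), -0.48 ± 0.16 (0.0969) and -0.42 ± 0.116 averaged (0.0278), and its 4 probes gave averages of -0.43 to -0.19. Mki67, the proliferation marker Ki-67, lay at 12.46 to 12.93 in WT CONT, 12.19 to 12.63 in WT PCN, 12.50 to 13.09 in Pxr-/- CONT and 12.43 to 12.76 in Pxr-/- PCN, and fell on average by 0.25 on the log2 scale (SE 0.076, limma adjusted p = 0.0428).

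Ube2c, the ubiquitin-conjugating enzyme of the APC/C, fell in Pxr-/- mice, from 11.41 to 12.23 (median 11.95) without PCN to 11.13 to 11.81 (median 11.43) with PCN, a change of -0.45 ± 0.126 (limma adjusted p = 0.0462). In WT mice it lay at 11.34 to 11.76 without PCN and at 11.64, 11.19, 11.31, 11.65 and 11.64 with PCN, a change of -0.08 ± 0.133 (0.879). The WT PCN arrays of Ube2c lay at 11.19 and 11.31 in replicates 2 and 3 and at 11.64 to 11.65 in the others. Cdc20, the activator of the APC/C, differed by -0.04 ± 0.148 in WT and -0.38 ± 0.141 in Pxr-/- mice (limma adjusted p = 0.962 and 0.128).

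Cdca8 encodes borealin of the chromosomal passenger complex, which corrects the attachment of chromosomes to the spindle. Cdca8 fell in Pxr-/- mice by 0.34 on the log2 scale (SE 0.094, limma adjusted p = 0.0462), from 11.65 to 12.17 (median 12.07) to 11.44 to 11.87 (median 11.64), with overlap. In WT it was at 11.54 to 11.89 without PCN and at 11.69, 11.58, 11.61, 11.63 and 11.62 with PCN. Birc5 (survivin), of the same complex, differed by -0.10 in WT and -0.32 in Pxr-/- mice.

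Of the mitotic kinases, Aurka, which builds the spindle poles, differed by -0.18 ± 0.133 in WT and -0.42 ± 0.126 in Pxr-/- mice (limma adjusted p = 0.67 and 0.0616) and fell on average (-0.30 ± 0.092, 0.0438). Plk1 differed by -0.12 and -0.41, Aurkb by -0.29 and -0.34, Bub1 by -0.21 and -0.29, and Ttk by -0.11 and -0.27. Cdk1, the kinase that starts mitosis, had the widest SE, with changes of -0.24 ± 0.248 and -0.42 ± 0.236. Its cyclins Ccna2, Ccnb1 and Ccnb2 differed by -0.17, -0.06 and 0.07 in WT and by -0.40, -0.35 and -0.28 in Pxr-/- mice.

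Kinesin-5 (Kif11), which pushes the spindle poles apart, and Nuf2, a part of the kinetochore complex that grips microtubules, both fell on average by 0.27 on the log2 scale (limma adjusted p = 0.0427 and 0.0467). The other 4 kinesins differed by -0.11 to -0.04 in WT and by -0.37 to -0.19 in Pxr-/- mice. The spindle checkpoint genes Bub1b and Mad2l1 differed by -0.13 and -0.20 in WT and by -0.28 and -0.32 in Pxr-/- mice. The 6 centromere and kinetochore genes had a median of -0.01 in WT and -0.27 in Pxr-/- mice, and the 5 of the spindle and cytokinesis (Tpx2, Prc1, Anln, Ect2 and Cdca3) -0.06 and -0.27. Ndc80 and Anln had the smallest differences in Pxr-/- mice, at -0.02 and -0.06.

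**Figure D3:**
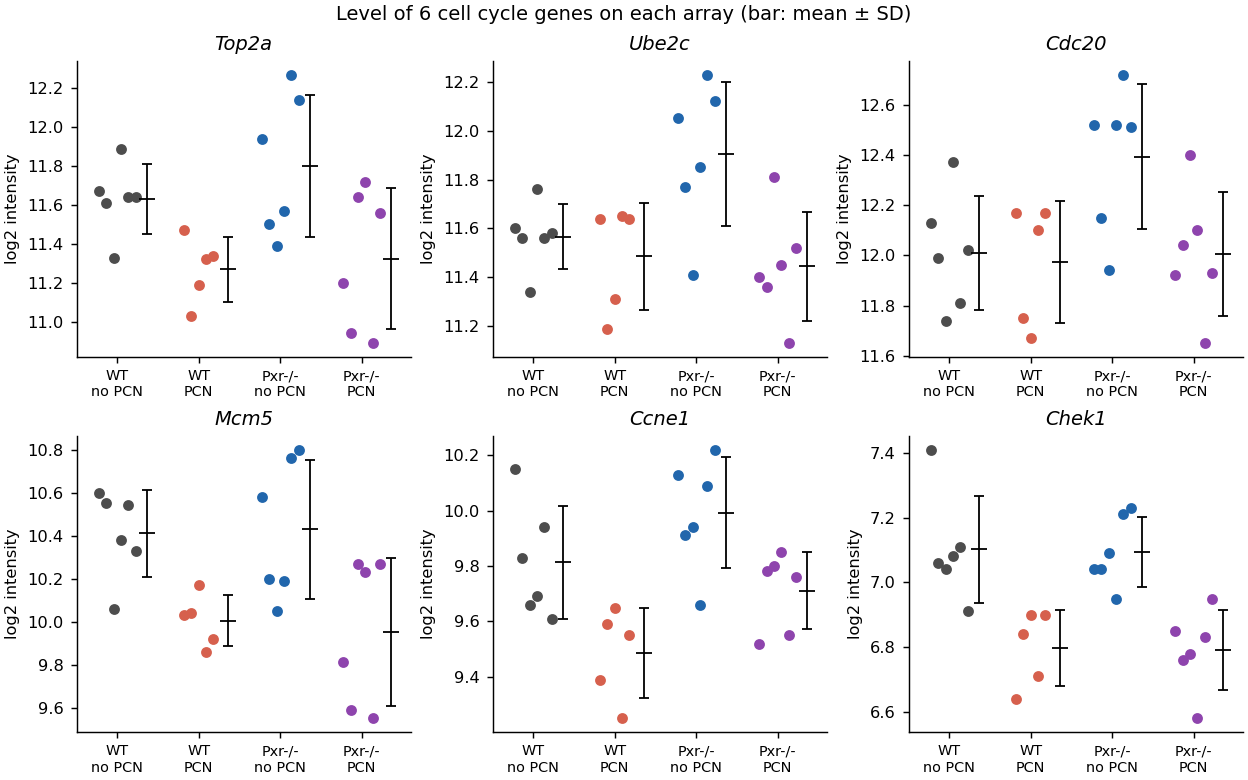
Log2 intensity of Top2a, Ube2c, Cdc20, Mcm5, Ccne1 and Chek1 on each array by group, with the mean ± SD; the y axes differ and do not start at 0. Chek1 in WT PCN (6.64 to 6.90) lies below all WT CONT arrays (6.91 to 7.41), while Cdc20 in Pxr-/- CONT reaches 12.72 against 12.37 in WT CONT.

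The comparison of genotypes without PCN set oil-treated mice without the receptor against WT mice of another origin. It shares Pxr-/- CONT and WT CONT arrays with the PCN contrasts. All 33 G2/M genes were higher in Pxr-/- CONT than in WT CONT, with a median difference of 0.23 and a range of 0.03 to 0.39, against 51.1% of all probes higher and a median of 0. Of the 15 S-phase genes 10 were higher, with a median of 0.02. None of the 51 was called under the fold rule (0.148% of all probes), and none passed by adjusted p alone (0.226%), the lowest limma adjusted p being 0.363 for Cdc20. At an unadjusted p under 0.05 there were 11 genes, all higher and all of G2/M (4.52% of all probes). The G2/M median was 0.39 in wash batch 1 and 0.11 in batch 2, and 0.35 with the slide fitted in place of the batch. The S-phase median was 0.16 with the slide fitted, and below 0 without Pxr-/- CONT replicate 1 (-0.01), 5 (-0.05) or 6 (-0.04) or WT CONT replicate 3 (-0.02).

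Cdca3, a trigger of mitotic entry, had the largest difference, 0.39 ± 0.152. Its level was 10.55 to 11.14 with a median of 10.85 in WT CONT, against 10.66 to 11.74 with a median of 11.16 in Pxr-/- CONT. Cdc20 differed by 0.38 ± 0.141, its WT CONT level being 11.74 to 12.37 (median 12.00) and its Pxr-/- CONT level 11.94 to 12.72 (median 12.51). For both genes 5 of the 6 Pxr-/- CONT arrays lay above the WT CONT mean, yet the groups overlapped, as they did for all 51 genes in this comparison. Ccnb2 differed by 0.36 ± 0.161, Ccnb1 by 0.34 ± 0.164, Ube2c by 0.34 ± 0.126, Cdk1 by 0.18 ± 0.236, Top2a by 0.17 ± 0.16 and Mki67 by 0.18 ± 0.104.

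The S-phase genes with the largest difference were Rrm2 (0.21 ± 0.13), Ccne1 (0.18 ± 0.104) and Gins2 (0.13 ± 0.147). The MCM genes differed by -0.07 to 0.03, Pcna by -0.10 ± 0.12, Tk1 by 0.02 ± 0.123 and Ccne2 by 0.08 ± 0.086. The other probes of Mcm6 and Mcm7 gave 0.10 and 0.21, while the 4 Mcm3 probes gave -0.01 to 0.02. Among the regulators, Foxm1 differed by 0.22 ± 0.118, E2f1 by 0.15 ± 0.104 and Chek1 by -0.01 ± 0.081.

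The genotypes were also compared with PCN. The median difference of Pxr-/- PCN from WT PCN was 0.04 for G2/M genes, 22 of 33 higher, and -0.03 for S-phase genes, 7 of 15 higher. These directions rested on single arrays. The G2/M median was -0.03 without WT PCN replicate 2 (9 of 33 higher), -0.04 without Pxr-/- PCN replicate 3 (12 higher) and -0.01 without WT PCN replicate 3 (14 higher), and the S-phase median was 0.02 without Pxr-/- PCN replicate 2, 0.04 without Pxr-/- PCN replicate 5 and 0.01 without WT PCN replicate 5. None of the 51 was called under the fold rule (0.366% of all probes) or passed by adjusted p alone (0.627%), and 0 had an unadjusted p under 0.05 in limma. The largest difference was that of Ccne1, 0.22 ± 0.109 (limma adjusted p = 0.722).

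**Figure D4:**
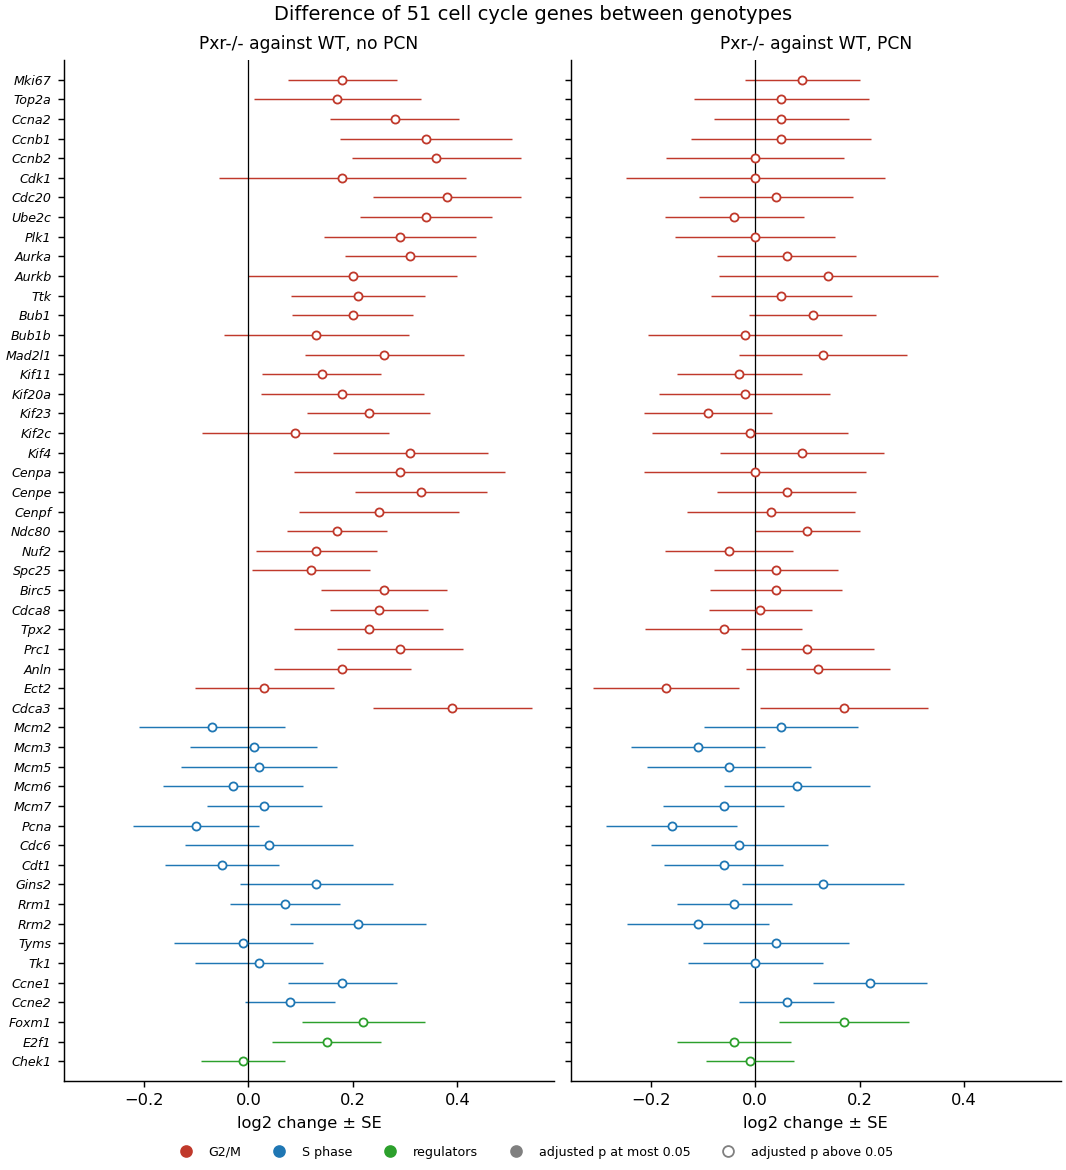
Log2 difference ± SE of Pxr-/- from WT mice for each of the 51 genes without PCN (left) and with PCN (right), in red for G2/M, blue for S phase and green for regulators; no point has an adjusted p of at most 0.05. Without PCN all 33 red points lie above 0 and the 15 blue points lie between -0.10 and 0.21.

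Mitotic and S-phase genes were then set against each other. In WT mice 13 of 15 S-phase genes had a lower change with PCN than the G2/M median, and the medians differed by 0.13. That WT difference was 0.01 with the slide fitted in place of the wash batch, 0.08 in either batch alone, 0.04 without WT PCN replicate 4, 0.05 without WT PCN replicate 5, 0.07 without WT CONT replicate 1 and 0.21 without WT PCN replicate 3. In Pxr-/- mice 29 of 33 G2/M genes had a lower change than the S-phase median, and the medians differed by -0.08, a value that was -0.19 in wash batch 1 alone, 0.03 in batch 2 alone, -0.02 without Pxr-/- CONT replicate 4 and -0.13 without Pxr-/- CONT replicate 3. Without PCN, the genotype difference of each of the 33 G2/M genes was above the S-phase median, and 19 of the 33 were above the highest S-phase gene, with medians 0.21 apart (0.36 in wash batch 1 alone and 0.08 in batch 2 alone). On single arrays, the G2/M mean minus the S-phase mean in WT mice was -0.49 ± 0.16 (SD, n = 6) with oil and -0.39 ± 0.24 (n = 5) with PCN. In Pxr-/- mice it was -0.29 ± 0.15 (n = 6) with oil and -0.35 ± 0.12 (n = 6) with PCN. With oil, WT arrays spanned -0.65 to -0.22 and Pxr-/- arrays -0.54 to -0.10, which overlap. The interaction was below 0 for all 33 G2/M genes, with a median of -0.20, and for 11 of 15 S-phase genes, with a median of -0.02, against 49.9% of all probes. The G2/M interaction median was -0.12 without Pxr-/- CONT replicate 5 and -0.31 without Pxr-/- CONT replicate 3. The S-phase count below 0 was 5 without Pxr-/- PCN replicate 2 or Pxr-/- CONT replicate 6 (median 0.02 in each), 7 without Pxr-/- PCN replicate 5 (0.01) or Pxr-/- CONT replicate 5 (0), and 15 with the slide fitted (-0.13).

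These counts are not counts of independent genes. After the group means and the wash batch were removed, the mean pairwise correlation over the 23 arrays was 0.75 within the G2/M genes, 0.64 within the S-phase genes and 0.47 between the classes, against 0 over all pairs of probes. Cdca3 and Ube2c followed their class most closely, each with a mean correlation of 0.84 with the other G2/M genes. Kif23 (0.23), Ndc80 (0.49) and Kif2c (0.58) followed it least. In S phase Mcm5 led (0.77), and Ccne2, near background, stood apart (0.04). Tk1 correlated more with the G2/M genes (0.79) than with its own class (0.58), as Gins2 did (0.71 and 0.66). These are correlations on shared arrays and describe how the genes vary among mice of a group.

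Further genes of the same pathways were read from lists. Of 67 other G2/M genes, 60 were lower with PCN in WT (median -0.11, 0 by adjusted p) and 64 in Pxr-/- mice (median -0.25), against 54.9% and 53% of all probes. In Pxr-/- mice Fzr1, Kifc1, Trip13 and Ube2s fell (1.6% of all probes did), Fzr1 being the other activator of the APC/C (these 4 are named because they passed, after their values were seen). Without PCN, 63 of the 67 were higher in Pxr-/- than in WT mice (median 0.15, 0 by adjusted p), against 51.1% of all probes. Of 60 other S-phase genes, 53 were lower with PCN in WT (median -0.20, 0 by adjusted p) and 53 in Pxr-/- mice (median -0.23, 7 fell). Of these 7, 2 were also called under the fold rule (0.947% of all probes were). They were Mybl2, the B-Myb factor of the MYB-MuvB complex (-0.74 ± 0.145, limma adjusted p = 0.00754), and E2f2 (-0.70 ± 0.109, 0.0013). Mybl2 differed by -0.43 ± 0.152 in WT (limma adjusted p = 0.212). Both genes fell averaged over the genotypes (-0.58 ± 0.105 and -0.51 ± 0.079, limma adjusted p = 0.00134 and 0.000365), and neither passed the interaction. The averaged contrast had 23 of the 60 S-phase and 10 of the 67 G2/M genes fallen, against 4.59% of all probes.

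Upstream of S phase, the D-type cyclins Ccnd1 and Ccnd2 fell in Pxr-/- mice (-0.57 ± 0.158 and -0.44 ± 0.107, limma adjusted p = 0.0475 and 0.0262), and Mycn rose (0.46 ± 0.109, 0.0217). These were 3 of 10 genes on the list of G1 cyclins, CDKs and their regulators (1.6% of all probes fell and 2.1% rose). In WT, Ccnd1 and Ccnd2 differed by -0.36 ± 0.167 and -0.29 ± 0.113 without passing. Both fell averaged over the genotypes (limma adjusted p = 0.0146 and 0.00545), as did Cdk2 (-0.25 ± 0.073, 0.0327), against 4.59% of all probes. None of the 10 passed the interaction. Without PCN, Ccnd1 was 0.58 ± 0.158 higher in Pxr-/- than in WT mice without passing (limma adjusted p = 0.157). Of 12 CDK inhibitors and p53 targets, 1 rose with PCN in WT (1.01% of all probes did). It was Cdkn1c, which encodes the inhibitor p57 (0.51 ± 0.122, limma adjusted p = 0.0347). Cdkn1c differed by 0.24 ± 0.116 in Pxr-/- mice (limma adjusted p = 0.246) and did not pass the interaction (-0.27 ± 0.168). Averaged over the genotypes it rose (0.38 ± 0.084, limma adjusted p = 0.00701), as did Cdkn2d (0.21 ± 0.054, 0.0188). Of all 37161 probes 3353 passed there, 1705 of them lower. Cdkn1c was lower in Pxr-/- PCN than in WT PCN (-0.65 ± 0.122, limma adjusted p = 0.00722), where 0.366% of all probes were called. Without PCN, Pxr-/- differed from WT mice by -0.39 ± 0.116 (0.21).

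Markers of the cell types of the ileal wall also differed between the groups, and their part in the values above was not tested. By adjusted p alone, 2.1% of all probes rose and 1.6% fell with PCN in Pxr-/- mice, and 1.01% rose and 0.304% fell in WT. With PCN in Pxr-/- mice, 6 of 6 fibroblast markers were higher (median 0.71, 4 rose), 7 of 7 smooth muscle markers were higher (median 0.47, 3 rose), 6 of 9 neutrophil and macrophage markers were higher (median 0.38, 4 rose) and 5 of 6 goblet markers were lower (median -0.51, 3 fell). In WT the medians were 0.34, 0.34, 0.16 and -0.33, with 1, 0 and 2 risen and 0 fallen. The mean fibroblast level ran from 11.84 to 12.61 in Pxr-/- CONT and from 12.59 to 13.34 in Pxr-/- PCN, and the mean smooth muscle level from 14.46 to 15.09 and from 14.84 to 15.55. The 12 enterocyte markers had medians of 0.13 in WT and 0.04 in Pxr-/- mice, and none passed.

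Markers of crypt base stem cells were read as well, since these cells are part of the dividing compartment. All 10 were lower in Pxr-/- CONT than in WT CONT (median -0.23, 0 by adjusted p), where the 33 G2/M genes were higher. With PCN, 9 of 10 were lower in WT (median -0.17, none passed) and 4 of 10 in Pxr-/- mice (median 0.04), where Smoc2 rose (0.35 ± 0.097, limma adjusted p = 0.0463). Averaged over the genotypes, Axin2 and Tnfrsf19 fell (-0.48 ± 0.124 and -0.35 ± 0.088, limma adjusted p = 0.0187 and 0.0142), and Smoc2 did not pass (0.22 ± 0.071, 0.0519). Their mean level ran from 10.46 to 10.79 in WT CONT, 10.23 to 10.56 in WT PCN, 10.12 to 10.57 in Pxr-/- CONT and 9.96 to 10.56 in Pxr-/- PCN. The 6 Paneth markers had medians of -0.26 between the genotypes without PCN and of 0.31 with PCN in Pxr-/- mice, and none passed.

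Lymphoid follicles also hold dividing cells. The mean of 11 B cell and germinal centre markers lay between 7.17 and 7.50 in WT CONT and 7.17 and 7.43 in Pxr-/- CONT. It ran from 7.55 to 9.80 in WT PCN (median 7.61, highest in replicate 3), above every WT CONT array. In Pxr-/- PCN it ran from 7.34 to 8.52 (median 7.64, highest in replicate 1). With PCN, 11 of 11 were higher in WT (median 0.95) and 10 of 11 in Pxr-/- mice (median 0.47), and none passed. Averaged over the genotypes 2 rose. Of all 37161 probes 3353 passed in either direction, 1705 of them (4.59% of all probes) lower. WT PCN replicate 3 also had the highest S-phase mean of its group (10.31) and a G2/M mean of 9.62, below the group mean. Without it the S-phase median with PCN in WT was -0.27 and the G2/M median -0.05. Of 7 T cell markers, 6 were higher in Pxr-/- CONT than in WT CONT (median 0.62, 1 rose, against 0.226% of all probes passing in either direction), with mean levels of 9.94 to 10.22 against 9.52 to 9.85.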

How the data were processed

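Total RNA of the whole ileum of 23 mice was hybridised to 1-colour Agilent mouse arrays of 62976 spots. The scanner intensities were extracted with Agilent Feature Extraction 10.10.1.1, per the submitters' processing notes, and the authors deposited them without normalisation. The main values are the log2 values of the authors' deposited table of 37161 probes, which the authors had filtered (by a rule not given in the sources used here), log2 transformed, corrected for wash batch and normalised between arrays. All arrays have the same distribution in that table, so a shift of all genes together cannot be seen in it. The number of arrays limits the precision.

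Each gene was read from the probe with the highest mean over the 23 arrays. A linear model holding the 4 groups plus a wash batch term was fitted to every probe (limma 3.58.1, eBayes; R 4.3.3), and 6 contrasts were drawn from it. Benjamini-Hochberg adjustment ran over all 37161 probes in each contrast. To be called, a gene had to reach an adjusted p no higher than 0.05 together with a fold above 1.5. Each array is 1 mouse, so p-values measure the spread between mice.

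The members and gene lists were chosen with earlier results of these data known. All 51 genes are accounted for. Named with values are, whatever they show, 14 genes (Mki67, Top2a, Ccnb1, Cdk1, Cdc20, Mcm2, Mcm5, Pcna, Tk1, Ccne1, Ccne2, Foxm1, E2f1 and Chek1), those passing a test, the 4 G2/M and 3 S-phase genes with the largest difference in each main contrast, and others by role. Alternatives were 4 normalisations from the scanner files, other batch terms, a replicate block, an intensity trend, the mean over a gene's probes, a filter on dim probes, each wash batch alone and leaving out each array. The code was tested on simulated data. Probe positions were not used, and promoter coordinates are those of RefSeq on GRCm38.p6. Group labels came from the deposited sample descriptions, and the authors' own comparisons were not used.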

Additional observations from a re-analysis of the deposited data

Results flagged for a closer look

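In 216 groups of 5 or 6 arrays tested for 1 array far from the rest (each gene and the 2 class means and their difference, by group), 6 stood out, in 5 genes. Chance flags about 1 in 20 groups. Cenpf, a kinetochore protein gene, was low in Pxr-/- CONT replicate 3, at 9.13 against 9.78 in the nearest array, and high in Pxr-/- PCN replicate 3, at 9.94 against 9.62. Mcm3 was high in WT CONT replicate 1, at 11.88 against 11.55. In WT PCN, Pcna was high in replicate 3 (12.82 against 12.52), Cdt1 was low in replicate 4 (10.77 against 10.97) and Tyms was low in replicate 2 (10.68 against 11.02). Pxr-/- CONT replicate 3 also had the lowest G2/M mean of its group, 9.63.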

How the results depend on the processing

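No gene that passed by adjusted p alone changed sign under any alternative run. None of the 51 genes was called under the fold rule in the main fit. When any array was left out, 0 to 0 genes were called in each contrast. In the main fit the largest change was -0.48, against a fold threshold of 0.585 on the log2 scale. Without the fold threshold, 4 genes passed for PCN in Pxr-/- mice and 12 for PCN averaged over genotypes. The 4 became 2 with the scanner signals scaled to the 75th percentile or centred on the median, 9 with the slide as a fixed block, 0 in wash batch 1 alone or wash batch 2 alone, and 0 to 12 when 1 array was left out. The 12 became 0 in wash batch 1 alone, 3 in wash batch 2 alone, and 5 to 19 when 1 array was left out. With the replicate block the 4 became 0 and the 12 became 5. Over 33 same-numbered pairs the correlation of deviations ran from -0.206 to 0.429 (median -0.032), with 6 over 0.1. Differently numbered pairs were not set beside them, so whether replicate numbers pair the samples was not tested. Single-batch fits hold fewer arrays; for the other settings the cause was not tested. When 1 array was left out, the G2/M median ran from -0.14 to -0.04 for PCN in WT, from -0.43 to -0.24 for PCN in Pxr-/- mice and from 0.16 to 0.33 for the genotypes without PCN, and the S-phase median from -0.27 to -0.16, -0.30 to -0.16 and -0.05 to 0.09. Over 36 settings, 28 to 33 of the 33 G2/M genes were higher in Pxr-/- mice without PCN, and the G2/M median exceeded the S-phase median there by 0.08 to 0.36. For PCN in WT mice that difference ran from 0.01 with the slide as a fixed block to 0.21 without WT PCN replicate 3. For PCN in Pxr-/- mice it ran from -0.19 in wash batch 1 alone to 0.03 in wash batch 2 alone. Signal over background limits only Ccne2.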
